A study of Bos taurus with 8 samples.

Results

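The H/ACA box snoRNAs were taken as the genes of biotype snoRNA whose name starts with SNORA and that held 10 or more reads summed over 8 bovine liver libraries. The rule kept 71 genes with 51 names, of 409 SNORA genes, 846 snoRNA genes and 24616 genes in the count table. Of the remaining SNORA genes, 302 had 0 reads and 36 had 1 to 9 reads, together 91 reads. These 71 genes were chosen by their read total over the 8 libraries, so they are the SNORA genes with enough reads to be described and not all of the class. H/ACA genes and H/ACA reads below mean these 71 genes only. RNAs with the H/ACA fold under other names are not among them. Genes that share a name were kept apart by their Ensembl identifier.

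Small RNA was sequenced from the liver of Holstein Friesian cows approximately 14 days postpartum, as 1 library per cow. The 4 cows in severe negative energy balance (SNEB, libraries 7S, 8S, 9S and 10S) were milked 3 times daily and were given 25 kg of silage and 4 kg of concentrate per day. The 4 cows in mild negative energy balance (MNEB, libraries 2M, 3M, 4M and 5M) were milked 1 time daily and had silage without restriction and 8 kg of concentrate per day. The effects of feeding and of milking cannot be told apart in these groups. Library 2M has a title that places it in MNEB and a treatment label of SNEB. It was analysed as MNEB, and values with 2M left out or moved to SNEB are given where they bear on a result.

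H/ACA snoRNAs fold into a pair of hairpins, joined by an H box and closed by an ACA box. Together with the pseudouridine synthase dyskerin (DKC1) and the proteins NHP2, NOP10 and GAR1 they guide the conversion of uridine to pseudouridine, mostly in ribosomal RNA. Most are cut out of the introns of host genes, many of which serve translation, and some are processed further into short RNAs of miRNA size. Small RNA libraries hold short inserts, so a count here stands for fragments of a snoRNA and not for the whole RNA.

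Gene counts per library were between 21617227 and 28526343 in SNEB and between 22809423 and 33963761 in MNEB, of which miRNA genes took 98.7% to 99.5% over the 8 libraries. Reads of biotype snoRNA numbered 47506 to 60523 in SNEB libraries and 42571 to 53374 in MNEB libraries. The 12 pairs of libraries within groups differed by more than sampling noise, with a chi-square per degree of freedom of 29.2 to 103 over snoRNA genes. All 6 hepatocyte markers were detected, and their summed level was 670787 to 757926 RPM (reads relative to all gene counts, scaled to 1000000) in SNEB and 601227 to 909994 RPM in MNEB. Nearly all of this sum was the miRNA bta-mir-122. The other markers of the list are protein-coding genes, and all protein-coding genes together took at most 0.928% of gene counts in a library. Markers of smooth muscle and stellate cells (4 of 4 detected) summed to 1773 to 2839 RPM in SNEB and to 2259 to 12740 RPM in MNEB, with 4M highest and 5M next at 7485 RPM. Leukocyte and Kupffer cell markers (6 of 6 detected) summed to 300.4 to 601 RPM in SNEB and to 24.7 to 920.0 RPM in MNEB, lowest in 5M and highest in 4M. Of the markers of other cells, HBA and HBB (red cell), bta-mir-1-1 (muscle) and KRT7 (bile duct epithelium) were at 0 in every library. Other markers of these lists were detected. The red cell list summed to 42.6 to 89.1 RPM in SNEB and to 2.18 to 62.9 RPM in MNEB, lowest in 5M. The bile duct and epithelial list summed to 34.1 to 46.7 RPM in SNEB and to 19.6 to 39.4 RPM in MNEB, also lowest in 5M. The skeletal muscle list summed to 0.278 to 1.96 RPM in SNEB and to 0.353 to 0.845 RPM in MNEB. In bulk tissue, fewer cells of a type and less RNA per cell cannot be told apart.

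The 71 genes held 80697 of 412100 snoRNA reads. H/ACA fragments made up 20.1%, 20.4%, 22.3% and 17.02% of snoRNA reads in SNEB libraries 7S, 8S, 9S and 10S, against 17.8%, 19.6%, 22.4% and 17.4% in MNEB libraries 2M, 3M, 4M and 5M. The share averaged 19.97% (SD 2.19) over the 4 SNEB libraries and 19.28% (SD 2.28) over the 4 MNEB libraries, and the groups overlapped over nearly their whole range. The lowest library, 10S, had a 95% Wilson interval of 16.7% to 17.3% and the highest, 4M, one of 22.0% to 22.8%, and such intervals cover counting error only. The difference of the means, 0.689 percentage points, was smaller than the SD of either group.

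Reads of the 71 genes were dominated by a few of them. SNORA36 alone held 64.6% of H/ACA reads, and it and the next 5 genes (SNORA63, SNORA31, SNORA53, SNORA32 and SNORA13) held 89.7%. The other 65 genes shared 8278 reads, or 10.3%. The median gene had 63 reads in all 8 libraries together, against 99 reads for the 153 other snoRNA genes with 10 or more. Only 6 genes had 1000 reads or more, 27 had 100 or more, and 44 had 10 to 99. Reads were present in every library for 38 of the 71 genes.

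**Figure D1:**
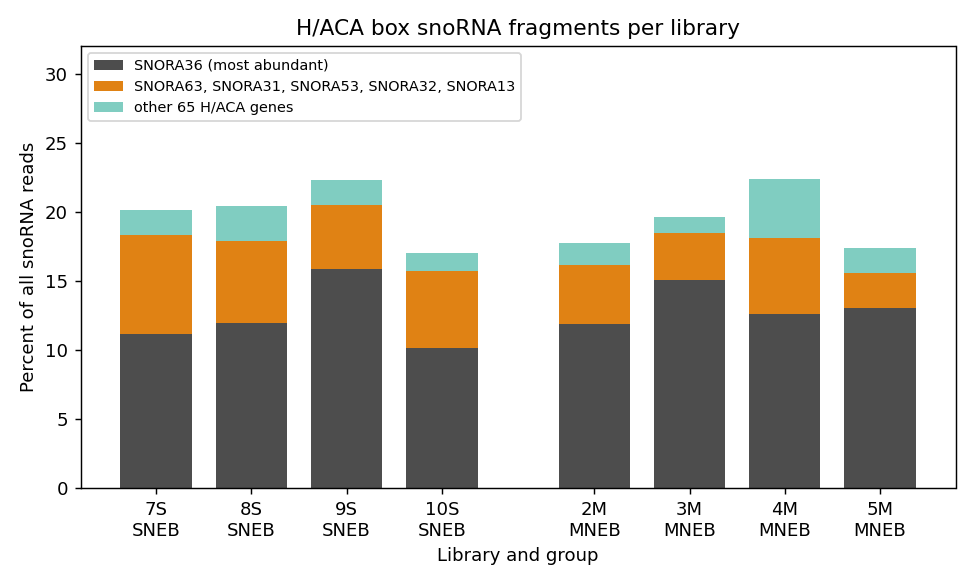
H/ACA reads as a percent of all snoRNA reads (y axis) in each library (x axis, SNEB then MNEB), stacked by gene group. SNORA36 is the lower part of each bar, the next 5 genes the middle and the other 65 genes the top. The bars reach 17.02% to 22.3% in SNEB and 17.4% to 22.4% in MNEB.

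Without SNORA36 the H/ACA share was 8.93%, 8.47%, 6.46% and 6.86% of snoRNA reads in SNEB libraries 7S, 8S, 9S and 10S, against 5.91%, 4.51%, 9.80% and 4.32% in MNEB libraries 2M, 3M, 4M and 5M. Library 4M was the highest of all 8, and the other 3 MNEB libraries lay below every SNEB library. The ratio of the SNEB mean to the MNEB mean was 1.25 without SNORA36, against 1.04 with it. Relative to all gene counts, H/ACA reads stood at 534, 434, 429 and 399 RPM in 7S, 8S, 9S and 10S and at 416, 334, 413 and 234 RPM in 2M, 3M, 4M and 5M, a ratio of means of 1.29.

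That ratio moved with the snoRNA total itself. snoRNA reads were 0.265%, 0.212%, 0.192% and 0.235% of gene counts in 7S, 8S, 9S and 10S, and 0.234%, 0.170%, 0.185% and 0.134% in 2M, 3M, 4M and 5M (exact permutation test over 70 assignments, two-sided p = 0.114, ratio of means 1.25). The groups overlapped in the range from 0.192% to 0.234%. With 2M in SNEB the ratio was 1.40 and the two-sided exact permutation p was 0.0357. Without 2M the ratio was 1.39, with an exact permutation p of 0.0571. Each of these p-values is over all assignments to groups of the new sizes. The difference depended on the denominator. Of gene counts outside miRNA genes, snoRNA reads averaged 22.5% in SNEB and 23.3% in MNEB, with 2M in MNEB (exact permutation test, two-sided p = 0.886).

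The snoRNA total used as the denominator was itself led by 1 gene outside the SNORA names. SCARNA15 (ENSBTAG00000044406), a guide RNA with the H/ACA fold that is known from human cells as ACA45 and as a source of small RNAs, held 154649 reads. It took 34.5%, 41.6%, 27.2% and 33.5% of snoRNA reads in 7S, 8S, 9S and 10S, and 33.1%, 52.1%, 34.2% and 42.9% in 2M, 3M, 4M and 5M. Levels below are given as reads per 10000 snoRNA reads, so a high SCARNA15 share in a library lowers the level of every other snoRNA in it. With SCARNA15 taken out of the denominator, the H/ACA share ran from 25.6% to 35.0% in SNEB and from 26.6% to 40.9% in MNEB, with 3M highest. The means were then 30.5% in SNEB and 33.0% in MNEB, a ratio of 0.924, so the order of the means turned with this denominator.

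SNORA36 (ENSBTAG00000042602) had 52096 reads and was the steadiest of the 71 genes. Its level was 1119, 1196, 1585 and 1016 reads per 10000 snoRNA reads in 7S, 8S, 9S and 10S, and 1186, 1508, 1257 and 1306 in 2M, 3M, 4M and 5M. The 8 libraries differed by at most 1.56-fold, and the coefficient of variation (CV) of 15.1% was the lowest of the 71, whose median CV was 82.1%. The SNEB mean was 1229 with an SD of 249, and the MNEB mean 1315 with an SD of 138 (n = 4 each).

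The difference of SNORA36 between groups did not exceed the spread (exact permutation test, two-sided p = 0.571). In edgeR's quasi-likelihood fit over all genes its log2 fold change was -0.10 with a 95% interval of -1.37 to 1.18, wide because that fit gave all genes of like abundance the same spread. Against all gene counts instead of snoRNA reads the log2 fold change was 0.22. In human, copies of SNORA36 overlap the precursors of miR-664, one of them in an intron of DKC1, the gene of dyskerin itself. In the RefSeq annotation of the later assembly ARS-UCD2.0 the bovine MIR664A lies within DKC1 and MIR664B within RAB3GAP2. The genes counted here included 0 of the name bta-mir-664, so reads of that miRNA had no gene of their own. Whether the SNORA36 reads were of that miRNA was not tested. A further gene of the same name (ENSBTAG00000043347) had 25 reads, so 1 gene carried nearly all reads of the name.

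SNORA63 (ENSBTAG00000042475), also called E3 and in human a passenger of the translation factor gene EIF4A2, was the next most abundant with 8170 reads, 10.1% of H/ACA reads. Its levels were 234, 149, 197 and 231 reads per 10000 snoRNA reads in 7S, 8S, 9S and 10S, and 159, 222, 356 and 54.6 in 2M, 3M, 4M and 5M. The highest and the lowest library were both MNEB, 6.52-fold apart. The SNEB libraries averaged 203 (SD 39.8) and the MNEB libraries 198 (SD 126), with n = 4 each, and the log2 fold change was 0.03.

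SNORA31 (ENSBTAG00000043243, 4151 reads), in human from an intron of TPT1, the gene of the translationally controlled tumour protein, had levels of 196, 99.6, 147 and 101 in 7S, 8S, 9S and 10S, and of 122, 23.1, 31.0 and 63.8 in 2M, 3M, 4M and 5M. Only 2M among the MNEB libraries reached into the SNEB range. The mean level over 4 libraries was 136 (SD 45.6) in SNEB, against 59.9 (SD 44.8) in MNEB. The log2 fold change of 1.18 ± 0.72 (SE) did not pass the edgeR test (adjusted p = 0.989). The exact permutation test gave a two-sided p of 0.0857.

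SNORA53 (ENSBTAG00000042417, 3560 reads), from an intron of the mitochondrial phosphate carrier gene SLC25A3 in human, stood at 115, 173, 61.9 and 75.6 in 7S, 8S, 9S and 10S, and at 58.8, 33.98, 76.8 and 75.4 in 2M, 3M, 4M and 5M. Libraries 7S and 8S were high, while 9S and 10S lay among the MNEB libraries. Its log2 fold change was 0.80 ± 0.72 (SE).

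SNORA32 (ENSBTAG00000043394, 2290 reads), in human from TAF1D, a gene of the RNA polymerase I machinery, reached 101, 98.0, 20.6 and 75.8 in 7S, 8S, 9S and 10S, and 52.5, 14.9, 30.8 and 28.5 in 2M, 3M, 4M and 5M. The SNEB library 9S lay below 3 of the 4 MNEB libraries. The log2 fold change was 1.22 ± 0.73 (SE), with an adjusted p of 0.978 in edgeR. SNORA13 (ENSBTAG00000043295, 2152 reads) had 65.2, 74.4, 37.7 and 70.7 in 7S, 8S, 9S and 10S, against 38.6, 40.9, 55.4 and 26.3 in 2M, 3M, 4M and 5M. Again 9S was the low SNEB library, and the log2 fold change was 0.62 ± 0.73 (SE). For SNORA32 and SNORA13 alike the exact permutation test gave a two-sided p of 0.114.

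**Figure D2:**
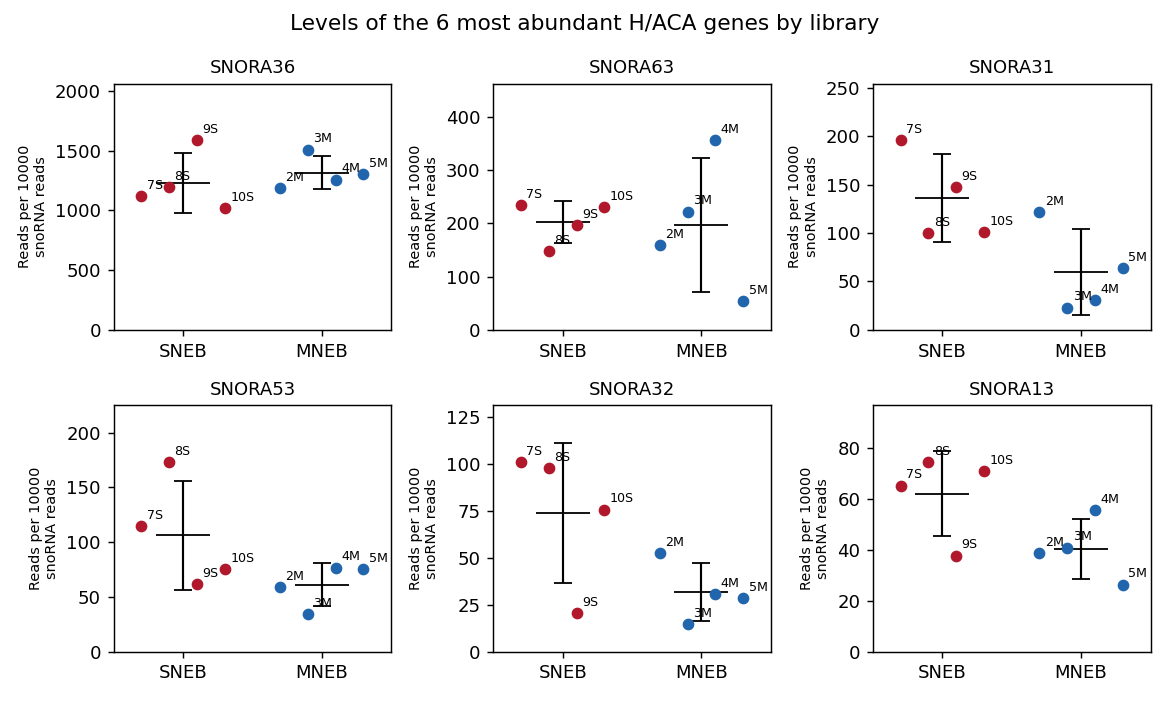
Level of the 6 most abundant H/ACA genes in reads per 10000 snoRNA reads (y axes, each from 0) for SNEB and MNEB libraries (x axis). Each point is 1 library, the long line is the group mean and the bar 1 SD to either side. SNORA36 stayed between 1016 and 1585, and in all 6 genes the groups overlap.

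Among the 71 genes none was called in the edgeR test at an adjusted p under 0.05, where 0.644% of all 9781 genes tested were called (0.0613% higher and 0.583% lower in SNEB). The smallest adjusted p was 0.867. At an unadjusted p under 0.05 edgeR also found 0 of 71 genes, against 5.90% of all genes (1.00% higher and 4.90% lower in SNEB) and 10 of the 153 other snoRNA genes. DESeq2 found 5 of 71 at that p, against 4.58% of all genes and 7 higher and 6 lower of the 153 other snoRNA genes. In 0 of 71 genes did the groups not overlap, against 1.84% of all genes. The smallest two-sided exact permutation p of a single H/ACA gene was 0.0571, where 0.0286 is the smallest that 4 libraries against 4 can give.

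Fold changes were above 0 in 40 of the 71 genes and below 0 in 31, with a median log2 fold change of 0.11. The share above 0 was 56.3%, against 42.5% of the other snoRNA genes and 35.8% of all genes. The median log2 fold change was -0.20 over the other snoRNA genes and -0.28 over all genes. With all gene counts as the library size, the median over all genes was 0.09 and that of the H/ACA genes 0.38. The median of the H/ACA genes rested on single libraries. It was 0.67 without 4M and -0.11 without 5M. Without 4M, 65 H/ACA genes still had 10 or more reads and were tested, with 56 above 0 and 9 below. Part of that change can thus come from the genes that dropped out. Without 4M the other snoRNA genes also had a higher median log2 fold change, 0.30 with 101 of 143 above 0, and so did all genes, 0.14 with 5108 of 8885 above 0. Without 5M the median was -0.28 for the other snoRNA genes and -0.03 for all genes. Without 7S, 8S, 2M or 3M the H/ACA median was also below 0, between -0.09 and -0.04. In those fits the median was between -0.34 and -0.18 for the other snoRNA genes and between -0.55 and -0.29 for all genes. The H/ACA median was 0.19 without 9S and 0.12 without 10S. With 2M in SNEB the median was -0.08 for the H/ACA genes, -0.21 for the other snoRNA genes and -0.59 for all genes.

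**Figure D3:**
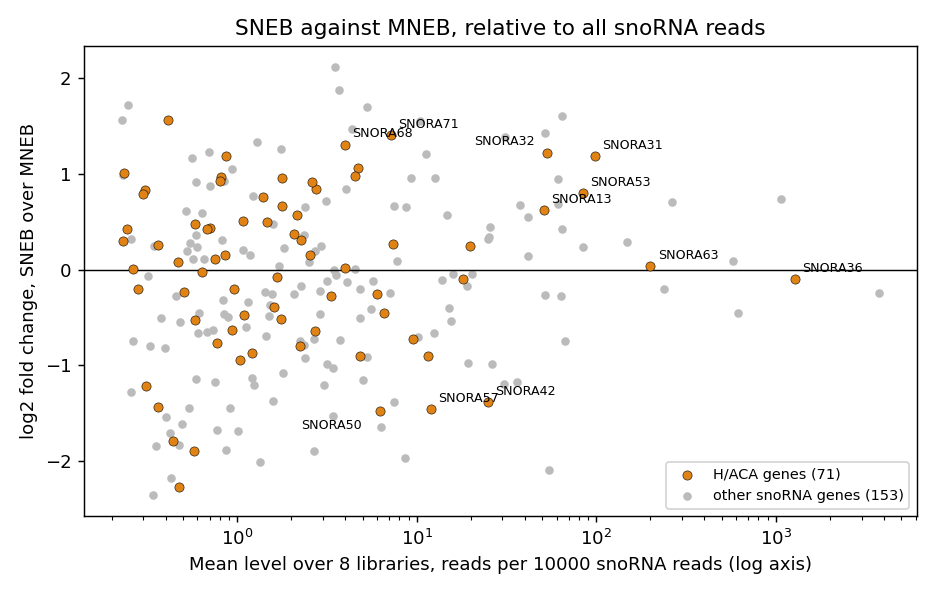
log2 fold change of SNEB over MNEB (y axis) against mean level in reads per 10000 snoRNA reads (x axis, log scale) for the 71 H/ACA genes (orange) and the 153 other snoRNA genes with 10 or more reads (grey). SNORA36 at the right lies at -0.10, the 5 genes next in level lie at 0.03 to 1.22, and the genes below them lie on both sides of 0.

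Lower levels in SNEB were largest, among genes with a mean of 10 or more reads per library, in SNORA50, SNORA57 and SNORA42, and none of these passed the test. SNORA42 (ENSBTAG00000042880, 952 reads), in human a product of the gene KHDC4, had levels of 9.24, 12.2, 25.3 and 8.15 in 7S, 8S, 9S and 10S, against 12.7, 26.2, 63.2 and 41.2 in 2M, 3M, 4M and 5M. Only 2M, below 9S, kept the groups from separating. The mean level over 4 libraries was 13.7 (SD 7.88) in SNEB, against 35.8 (SD 21.6) in MNEB. The log2 fold change was -1.38 ± 0.75 (SE), with an adjusted p of 0.913 in edgeR and a two-sided exact permutation p of 0.0571.

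SNORA57 (ENSBTAG00000042273, 455 reads) stood at 2.79, 11.4, 9.05 and 2.27 in 7S, 8S, 9S and 10S, and at 7.31, 4.96, 49.8 and 8.33 in 2M, 3M, 4M and 5M. Its log2 fold change of -1.46 rested on 4M and was -0.10 without it. SNORA50 (ENSBTAG00000042398, 241 reads), from CNOT1 in human, had 5.06, 1.65, 3.79 and 2.65 in SNEB, against 1.87, 4.96, 8.93 and 21.0 in 2M, 3M, 4M and 5M. Its log2 fold change of -1.48 (edgeR, unadjusted p = 0.0549, adjusted p = 0.867) was -0.67 without 5M. The exact permutation test gave a two-sided p of 0.457 for SNORA57 and of 0.2 for SNORA50.

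A further SNORA63 gene (ENSBTAG00000047590, 434 reads) and SNORA2 (ENSBTAG00000042536, 187 reads) had the same form. The SNORA63 gene stood at 7.67, 5.12, 14.7 and 4.55 in 7S, 8S, 9S and 10S, and at 2.06, 6.11, 50.3 and 1.75 in 2M, 3M, 4M and 5M. SNORA2 stood at 4.01, 2.48, 4.42 and 2.46 in SNEB, and at 3.93, 2.86, 15.3 and 3.07 in MNEB. In both, 4M was several times above the other 7 libraries. Both had a log2 fold change of -0.90, which without 4M was 1.27 for the SNORA63 gene and 0.02 for SNORA2.

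Higher levels in SNEB, beside SNORA31 and SNORA32, were seen in SNORA71, SNORA68 and SNORA74, again without passing the test. SNORA71 (ENSBTAG00000042744, 314 reads), in human from the host gene SNHG17, had 10.5, 16.5, 3.79 and 10.8 in 7S, 8S, 9S and 10S, against 8.81, 2.29, 2.11 and 2.41 in 2M, 3M, 4M and 5M. Library 2M stood with the SNEB libraries, and the other 3 MNEB libraries lay below every SNEB library. The log2 fold change was 1.40 ± 0.76 (SE), with an adjusted p of 0.913 in edgeR and a two-sided exact permutation p of 0.0571. Without 2M it was 2.18.

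SNORA68 (ENSBTAG00000043512, 172 reads) had 7.32, 10.4, 2.95 and 1.90 in 7S, 8S, 9S and 10S, and 3.37, 0.191, 4.93 and 0.657 in 2M, 3M, 4M and 5M. The groups overlapped, and the log2 fold change was 1.31 ± 0.78 (SE). SNORA74 (ENSBTAG00000044898, 198 reads), known as U19, had 6.45, 5.78, 8.84 and 4.55 in SNEB, and 5.06, 2.86, 4.23 and 0 in 2M, 3M, 4M and 5M. A count of 0 in 5M allows a level of up to 0.657. Its log2 fold change was 1.07 ± 0.77 (SE), and 0.66 without 5M.

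The placement of 2M changed which of these genes separated the groups. With 2M in SNEB, 4 H/ACA genes were higher in every SNEB library than in every MNEB library (SNORA31, SNORA71, SNORA24 and SNORA74, each the gene described here), against 0.603% of all genes, and 2 were lower in every SNEB library (SNORA42 and a SNORA62 gene), against 2.32%. Of the 153 other snoRNA genes, 10 were higher and 6 lower in this way. The share of higher genes was thus 5.63% among the H/ACA genes and 6.54% among the other snoRNA genes. With 2M left out the same 6 genes separated, where the shares of all genes were 1.33% higher and 2.80% lower, and 11 and 6 of the other snoRNA genes separated. SNORA24 and SNORA62 were named after their values had been seen. SNORA24 (ENSBTAG00000043530, 314 reads), in human from the host gene SNHG8, stood at 9.24, 7.93, 6.95 and 8.15 in 7S, 8S, 9S and 10S, and at 17.4, 4.20, 3.99 and 1.096 in 2M, 3M, 4M and 5M. Its SNEB libraries lay within a narrow range, and 2M was the highest of the 8. The SNORA62 gene (ENSBTAG00000042875) had only 14 reads.

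With 2M in SNEB, 11 of the 71 genes had an unadjusted p under 0.05 in edgeR (5 higher, 6 lower in SNEB), against 10.3% of all genes and 14 higher and 12 lower of the 153 other snoRNA genes. With 2M left out, 7 of the 66 H/ACA genes tested had such a p (3 higher, 4 lower), against 7.90% of all 9527 genes tested and 12 higher and 10 lower of 148 other snoRNA genes. In neither case did any pass after adjustment, and the smallest adjusted p of an H/ACA gene was 0.207 with 2M in SNEB. It belonged to SNORA50 (ENSBTAG00000042398), at a log2 fold change of -1.95.

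Of the 51 names, 15 stood on more than 1 of the 71 genes and covered 35 of them. Copies of 1 name can share sequence, and reads that align to more than 1 place were not counted, so values of single copies are uncertain. In most such names 1 gene held most of the reads. It held 94.5% of the reads of SNORA63, 92.2% of those of SNORA42, 86.0% of those of SNORA71, 94.9% of those of SNORA2 and 87.2% of those of SNORA58. The reads of SNORA74 (47.9% in the leading gene), SNORA73 (53.1%) and SNORA64 (53.2%) were spread more evenly.

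The genes of 1 name did not always move alike. The leading SNORA63 gene (ENSBTAG00000042475) was lowest in 5M at 54.6 and highest in 4M at 356, a 6.52-fold range, while ENSBTAG00000047590 ranged 28.7-fold between the same libraries. The 2 most abundant SNORA74 genes differed in 5M, where ENSBTAG00000043162 had a level of 10.1 and ENSBTAG00000044898 had 0 reads. ENSBTAG00000043162 stood at 3.84, 8.92, 7.58 and 1.33 in 7S, 8S, 9S and 10S, and at 2.44, 1.34, 12.2 and 10.1 in 2M, 3M, 4M and 5M, a log2 fold change of -0.26, against 1.07 for ENSBTAG00000044898. Both intervals include 0, and the difference between copies was not tested.

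The 2 remaining abundant genes showed no difference beyond the spread. SNORA54 (ENSBTAG00000042680, 832 reads), from NAP1L4 in human, stood at 18.1, 44.1, 12.2 and 11.0 in 7S, 8S, 9S and 10S, and at 20.6, 8.40, 16.2 and 26.7 in 2M, 3M, 4M and 5M. Its log2 fold change of 0.25 was -0.38 without 8S. SNORA58 (ENSBTAG00000043590, 738 reads) had 19.2, 22.0, 15.6 and 13.1 in SNEB, against 13.7, 12.0, 28.9 and 20.4 in MNEB. It had a log2 fold change of -0.10 and a CV of 31.4%, the lowest after SNORA36.

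SNORA73, known as U17, stands apart in function, since it takes part in the cleavage of pre-rRNA and does not guide pseudouridylation. Its 3 genes held 76 (ENSBTAG00000046050), 38 (ENSBTAG00000045668) and 29 (ENSBTAG00000046681) reads. The most abundant had levels of 3.14, 3.97, 1.47 and 0.758 in 7S, 8S, 9S and 10S, and of 1.87, 0.573, 2.35 and 0 in 2M, 3M, 4M and 5M. The log2 fold changes of the 3 genes were 0.96 ± 0.84, -0.21 ± 0.92 and 0.43 ± 1.00 (SE), in the order of their reads. None of the 3 passed the test in edgeR (adjusted p = 0.999 for each).

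Across the H/ACA genes, library 4M was the highest more often than any other. It had the highest level of the 8 libraries in 36 of 71 H/ACA genes, against 45.9% of all genes and 78 of the 153 other snoRNA genes. The share of H/ACA genes, 50.7%, was thus near the background. Library 5M had the lowest level, alone or tied, in 29 of 71 genes (15.3% of all genes and 53 of the 153 other snoRNA genes), and 3M in 28 (45.3% of all genes and 38 of the 153 other snoRNA genes). Reads were found for 66, 70, 63 and 62 of the 71 genes in 7S, 8S, 9S and 10S, and for 69, 56, 68 and 49 in 2M, 3M, 4M and 5M.

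Other measures also differed between these libraries, and not always in the order of the H/ACA levels. Fragments of protein-coding genes were 0.519% to 0.686% of gene counts in SNEB, and in MNEB 0.377%, 0.191%, 0.928% and 0.827% in 2M, 3M, 4M and 5M. The markers of smooth muscle and stellate cells were highest in 4M and 5M, and those of leukocytes and Kupffer cells highest in 4M and lowest in 5M. SCARNA15 took its largest share of snoRNA reads in 3M. The part of these measures in the H/ACA levels was not tested.

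**Figure D4:**
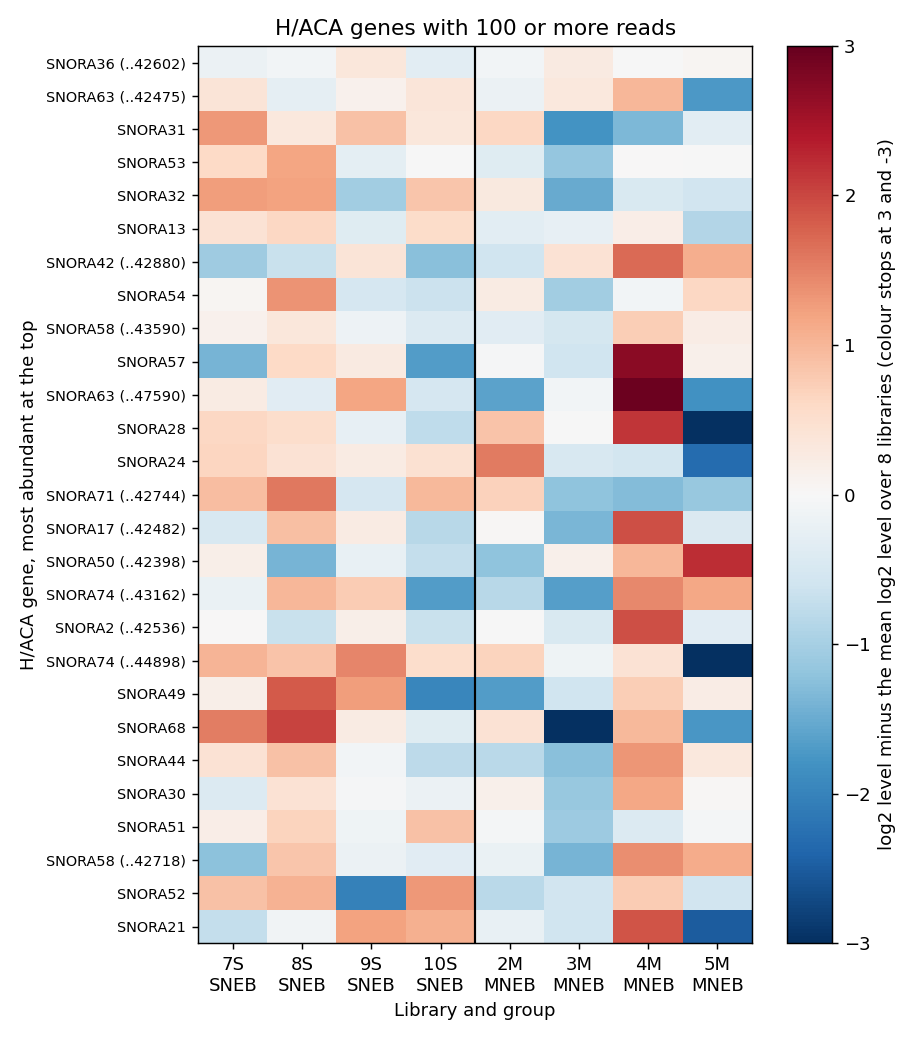
H/ACA genes with 100 or more reads (27 rows, most abundant at the top) in each library (columns, SNEB left of MNEB). Colour is the log2 level, with 0.5 reads added, minus its mean over the 8 libraries, red above and blue below, stopping at 3 and -3. SNORA36 in the top row is nearly uncoloured, 4M holds most of the dark red cells, and 3M and 5M hold most of the dark blue cells.

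The protein genes of the H/ACA particle and of related nucleolar steps were present only as sparse fragments. Of the 16 genes found in the count table, 15 had 10 or more reads, none was called, and their totals ran from 16 to 77 reads. DKC1, the pseudouridine synthase of the particle, had 8, 17, 16 and 6 reads in 7S, 8S, 9S and 10S, and 5, 3, 6 and 16 reads in 2M, 3M, 4M and 5M, a log2 fold change of 0.44 ± 0.82 (SE). NHP2 had 21 reads, NOP10 25 and GAR1 26 in all 8 libraries together, with log2 fold changes of -1.40 ± 1.12, -1.59 ± 1.06 and -0.45 ± 1.02 (SE). Fold changes were above 0 in 4 of the 15 genes and below 0 in 11, with a median log2 fold change of -0.39, against -0.28 over all genes. NOP56, a protein of the C/D particle, came nearest to the threshold, at 16, 11, 14 and 8 reads in SNEB, against 0, 2, 9 and 2 reads in MNEB (log2 fold change 1.64 ± 0.88 SE, adjusted p = 0.906 in edgeR). NPM1, a nucleolar protein gene, had 0 reads. These fragments do not measure the messenger RNA or the protein.

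Just inside the minimum of 10 reads lay SNORA42 (ENSBTAG00000042474), SNORA2 (ENSBTAG00000043249) and SNORA15 (ENSBTAG00000046466), each with 10 reads over the 8 libraries. Just outside lay SNORA19, SNORA43 and a SNORA32 gene (ENSBTAG00000046551), each with 8 reads. Counting all SNORA names with no minimum left the ratio of the SNEB to the MNEB share of snoRNA reads at 1.04.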

How the data were processed

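The authors trimmed adaptors with cutadapt 1.1, dropped reads under 18 nucleotides, used FastQC 0.10.0 for quality control, mapped reads onto the UMD3.1 assembly by Novoalign 2.07.11, and took unique alignments per Ensembl gene by HTSeq 0.5.3p3. The deposited values are these raw counts. Whether counting used strand is not stated in those sources, so an overlapping gene may have affected the count of a snoRNA. A sheet of miRNA frequencies was not used. The column headed 6S was taken as 8S, since the label of 8S gives its column letter. The 3 lines that name no gene (blank lines and the total) were left out.

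Levels are reads per 10000 snoRNA reads. SNEB was compared with MNEB in edgeR 4.0.16 (quasi-likelihood test, R 4.3.3) over the 9781 genes with 10 or more reads, with the snoRNA total as library size, no further scaling and Benjamini-Hochberg adjustment over all genes. The fit was also run on simulated counts, whose spread was a set value and not that of these data. That run therefore does not show how the fit behaves here. The prior degrees of freedom of the fit to these data were infinite, so genes of like abundance share 1 spread. A two-sided exact permutation test of each gene's level, over all 70 assignments of the libraries, was added after seeing this. Alternatives were other library sizes, TMM and RLE scaling, other filters, DESeq2 1.42.0, limma voom (limma 3.58.1), robust fitting, moving 2M to SNEB, and leaving out each library in turn. Intervals of shares are Wilson intervals at 95% (scipy 1.17.1). p-values of the permutation tests measure the spread of that value between cows, 1 library each. Those of edgeR rest on the spread between cows shared by genes of like abundance, and not on that of the single gene.

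The genes described, the lists and the tests were chosen with earlier results of these data known. Named genes are the 10 most abundant, the 5 higher and 5 lower ones of smallest p at a mean of 10 or more reads per library, genes with repeated names (up to 6), SNORA73, those next to the minimum, and up to 6 in which 1 library stood far from its group. Gene names were taken from the count table. RefSeq names of ARS-UCD2.0 matched 0 of the 71 genes by symbol or identifier, so their sequences, positions and host genes were not used here, and host genes are given as known in human.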

Additional observations from a re-analysis of the deposited data

Results flagged for a closer look

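In 9 cases 1 library of a named H/ACA gene stood far from the other 3 of its group, by the gap to its nearest neighbour relative to the range of the group (Dixon's criterion). The library was 4M in 5 of them. SNORA57 (ENSBTAG00000042273) had a level of 49.8 reads per 10000 snoRNA reads in 4M, the SNORA63 gene ENSBTAG00000047590 50.3, SNORA2 (ENSBTAG00000042536) 15.3, the SNORA11 gene ENSBTAG00000043093 2.82 and the SNORA71 gene ENSBTAG00000042678 1.41. In SNEB, 8S stood high for the same SNORA71 gene at 0.661 and for SNORA23 (ENSBTAG00000042414) at 0.991, and 7S for SNORA64 (ENSBTAG00000042688) at 4.53. The SNORA71 gene ENSBTAG00000042744 had 8.81 in 2M, the library whose title and treatment label differ. SNORA11, SNORA23 and the SNORA71 gene ENSBTAG00000042678 had 16, 13 and 12 reads in all, so these levels rest on a few reads.

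Over all 71 genes and both groups, 142 groups were examined and 14 stood out in this way, 10 of them with 4M as the highest library. The criterion is set to pick about 1 in 20 groups by chance when values are normally distributed, which sparse counts are not, and in 2 of the 14 groups reads were present in 1 library only, so that it had to stand out. Over all genes tested, 12.4% of groups stood out, against 9.86% of those of the H/ACA genes. The genes share their libraries and are not independent of each other.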

How the results depend on the processing

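The count of H/ACA genes called stayed at 0 under all 21 alternatives, with the smallest adjusted p of an H/ACA gene between 0.207 and 0.9999. The count of called protein genes of the H/ACA particle and of related nucleolar steps also stayed at 0, under the 19 alternatives that held them. Counts of H/ACA genes at an unadjusted p under 0.05 ran from 0 to 11. The median log2 fold change of the H/ACA genes lay between 0.03 and 0.38 under the scalings, filters and tools, and between -0.11 and 0.67 with 1 library left out. The ratio of the SNEB to the MNEB H/ACA share lay between 0.995 and 1.09 with 1 library left out, and was 0.924 with SCARNA15 out of the denominator, 0.987 with 2M in SNEB, 1.29 against all gene counts and 1.25 without SNORA36. The ratio of the snoRNA share of gene counts was 0.964 with miRNA genes left out of the denominator (two-sided exact permutation p = 0.886), 1.40 with 2M in SNEB and 1.15 to 1.39 with 1 library left out. Of 26 named genes, 16 kept their direction in every fit that held them. Not every fit held all named genes, since those with few reads fell below some filters. With a minimum of 50 reads, 38 of the 71 H/ACA genes were tested. With all gene counts as library size the log2 fold change was 0.22 for SNORA36 and 0.25 for SNORA58. TMM gave -0.053 for SNORA63 (ENSBTAG00000042475), 0.012 for SNORA58 and 0.042 for SNORA73 (ENSBTAG00000045668), and TMM over snoRNA genes 0.027 for that SNORA73. RLE gave -0.17 and the total without SCARNA15 -0.12 for that SNORA63. limma voom gave 0.29 for SNORA63 (ENSBTAG00000047590) and 0.87 for that SNORA73. With 2M in SNEB the values were -0.12 for SNORA63 (ENSBTAG00000042475), and 0.079 and -0.097 for SNORA73 (ENSBTAG00000045668 and ENSBTAG00000046681). With 1 library left out, log2 fold changes that crossed 0 ran from -0.28 to 0.48 for SNORA63 (ENSBTAG00000042475), -0.38 to 0.50 for SNORA54, -0.26 to 0.19 for SNORA58, -1.37 to 1.27 for SNORA63 (ENSBTAG00000047590), -1.14 to 0.020 for SNORA2, -0.33 to 1.12 for SNORA64, -0.63 to 0.93 for SNORA73 (ENSBTAG00000045668) and -0.092 to 0.67 for SNORA42 (ENSBTAG00000042474). The cause was not tested. Depth limits the 44 genes with 10 to 99 reads most. No paired analysis was possible because the groups share no replicate numbers.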
